A study of Mus musculus with 2 samples.

Results

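The expression of 10 genes of transforming growth factor beta (TGF-beta) and activin signalling was measured in liver sinusoidal endothelial cells (LSEC). These are perforated endothelial cells that form the wall of the hepatic sinusoids. They were the ligand genes Tgfb1, Tgfb2 and Tgfb3, the receptor genes Tgfbr1, Tgfbr2 and Tgfbr3, the activin subunit genes Inhba and Inhbb, the activin antagonist gene Fst and the latency protein gene Ltbp1. They were found by gene symbol among the probes of the WT array, and their spots were matched by spot number on the ob/ob array. This gave 10 of the 31881 genes on the array, read by 13 of 39429 probes and 31 of 43020 spots.

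The cells came from 1 ob/ob mouse and 1 WT mouse. Both mice were 8-week-old males. Mice of the ob/ob genotype lack functional leptin from birth and become obese with a fatty liver. The strain of the WT mouse is not stated in the labels. Both livers were digested with collagenase and both cell preparations spent a night in DMEM with 10% serum before total RNA was taken, so all levels are those of cells after culture. Each RNA was labelled with Cy3 and hybridised to 1 array, so n = 1 per genotype, no test was possible, and neither the spread between mice nor that between preparations is known.

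TGF-beta is secreted in a latent complex with its own propeptide and a latent TGF-beta binding protein, and is set free by integrins, thrombospondin or proteases. The free ligand brings together the type II receptor, encoded by Tgfbr2, and the type I receptor, encoded by Tgfbr1, which then phosphorylates Smad2 and Smad3. Activins are dimers of inhibin beta subunits that reach the same Smads through receptors of their own, and follistatin, encoded by Fst, binds activins and keeps them from those receptors. In the liver TGF-beta is best known for driving hepatic stellate cells towards matrix production, and activin A for restraining hepatocyte growth.

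Values are given as intensity (the background-subtracted signal of the scanner software) or as scaled signal, which is that intensity divided by the 75th percentile of its array. This percentile was 1430 on the ob/ob array and 989 on the WT array. Differences are ob/ob minus WT on the log2 scale, and a gene was counted as higher or lower where it differed by at least 2-fold. Probes differ in affinity, so the levels of different probes do not rank the genes, and the sums over marker lists given at the end are dominated by their brightest probes. All 31 spots were well above background on both arrays, none was saturated and none carried an outlier flag, and the local background around them lay between 52 and 68 on the ob/ob array and between 57 and 72 on the WT array.

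Of the 10 genes, 3 were at least 2-fold higher in ob/ob LSEC (Tgfb2, Tgfb3 and Inhba), 1 was at least 2-fold lower (Fst) and 6 lay within 2-fold. Among the 18135 genes that both arrays measured, 5.82% were higher by this count and 2.29% lower, which makes 8.11% in either direction. The median difference was 0.40 over the 10 genes, beside -0.12 over the 18135, and it turned to -0.17 with normexp and the 75th percentile. The genes that were higher encode ligands or a ligand subunit, and the gene that was lower encodes the antagonist. The receptor genes all lay within 2-fold, as did the ligand gene Tgfb1 and the subunit gene Inhbb. With normexp and the 75th percentile Inhba alone of the 10 was higher. The technical spread available for reading these values was a median SD of 0.20 from the scanner's error model and an SD of 0.33 between different probes of a gene, pooled over 3693 genes.

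**Figure D1:**
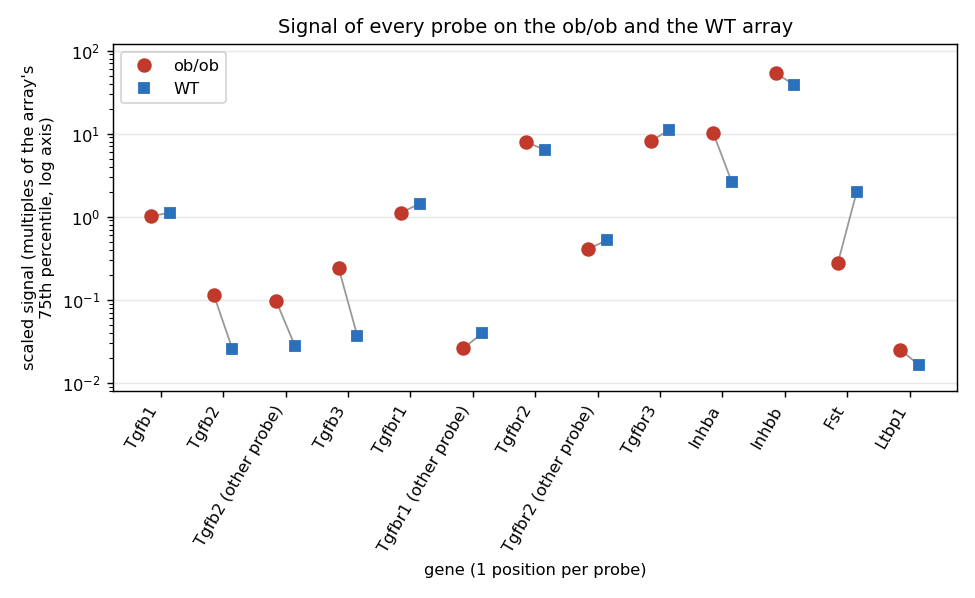
Scaled signal of each of the 13 probes on the ob/ob array (red circles) and the WT array (blue squares), 1 array each, on a log axis. Grey lines join the values of a probe. The lines of Tgfb2, Tgfb3 and Inhba run steeply down to WT, that of Fst runs steeply up to WT, and both probes of Tgfb2 slope the same way; levels of different probes are not comparable.

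Among the ligands, Tgfb3 differed most. Its probe (mm9, chr12:87397804-87397863, minus strand) is spotted 10 times on each array. Scaled signals ran from 0.217 over a median of 0.245 to 0.255 on the ob/ob array, and from 0.0319 over 0.0366 to 0.0441 on the WT array. The lowest ob/ob spot therefore lay far above the highest WT spot. The mean difference was 2.72, a 6.61-fold higher signal in ob/ob, and the 10 single-spot differences ran from 2.50 to 2.96 with an SD of 0.14. Ordered from the most positive difference, it stood at place 143 of 18135, in a range of levels where 11.8% of the genes were at least 2-fold higher. The difference was 1.24 with normexp background correction and quantile normalization and 0.48 with normexp and the 75th percentile.

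Tgfb2 encodes the isoform that binds its signalling receptors poorly unless betaglycan, the product of Tgfbr3, presents it. It was read by 2 probes that lie 1799 bases apart on chromosome 1. The brighter one (mm9, chr1:188447534-188447593, minus strand) had an intensity of 165 in ob/ob LSEC and 25.0 in WT LSEC, or scaled signals of 0.115 and 0.0253. Its difference was 2.19, or 4.56-fold. The other probe gave scaled signals of 0.0965 in ob/ob and 0.0280 in WT and a difference of 1.78. Both probes thus put the ob/ob sample higher, by amounts that differed by 0.40, about the spread between probes of other genes. Of the 906 genes of like level, 14.2% were at least 2-fold higher. Both WT intensities, 25.0 and 27.7, were low, the dimmest signal called well above background on that array being 12.3. The difference was 0.77 with normexp and quantile normalization. With normexp background correction and scaling to the 75th percentile its sign turned, to -0.22, a setting under which the all-gene median was -0.29.

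Tgfb1, the most widely expressed isoform, lay within 2-fold. Its probe (mm9, chr7:26489877-26489936, plus strand) is also spotted 10 times. Scaled signals ran from 0.965 over a median of 1.02 to 1.05 on the ob/ob array, and from 1.05 over 1.12 to 1.17 on the WT array. The highest ob/ob spot and the lowest WT spot almost touched. The mean difference was -0.14, smaller than the error-model SD of 0.20. In unscaled intensity the ob/ob median was the higher one, at 1460 against 1105 in WT, so the sign of this small difference comes from the scaling of the arrays. It stayed negative, between -0.42 and -0.03, under all 10 alternatives, each of which scales the arrays.

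**Figure D2:**
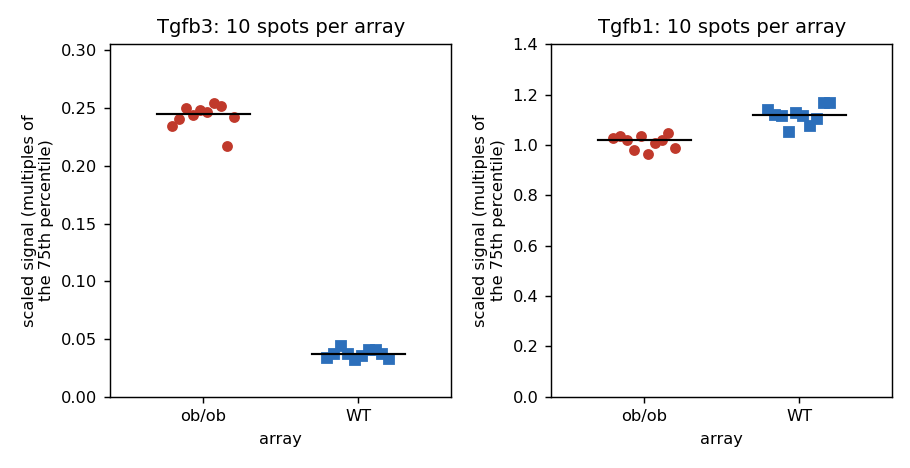
Scaled signal of the 10 spots of the Tgfb3 probe (left) and of the Tgfb1 probe (right) on the ob/ob array (red circles) and the WT array (blue squares), on linear axes from 0, with black lines at the medians. Spots are repeats of 1 RNA on 1 array and not biological replicates. The Tgfb3 spots form 2 well separated groups, with medians of 0.245 in ob/ob and 0.0366 in WT, and the Tgfb1 groups lie next to each other, with medians of 1.02 in ob/ob and 1.12 in WT.

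The sequences of 3 probes show what was hybridised for the ligands and for Inhba. Each lies in the coding sequence of the mature growth factor, the stretch that is most alike between family members, so the probes were compared with each other. Capitals mark the bases where these 2 probes align, and 28 of those 41 bases are identical. All probes are 60 bases long and are written 5′ to 3′ as deposited by the authors.
Tgfb1 probe: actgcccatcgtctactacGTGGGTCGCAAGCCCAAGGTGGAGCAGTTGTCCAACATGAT
Tgfb2 probe: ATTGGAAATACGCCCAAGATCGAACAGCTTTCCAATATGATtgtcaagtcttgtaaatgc
Inhba probe: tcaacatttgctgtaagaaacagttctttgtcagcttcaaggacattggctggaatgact
The Tgfb2 probe shown is the dimmer of its pair (mm9, chr1:188449333-188449392, minus strand), and the Inhba probe lies at mm9, chr13:16118634-16118693, plus strand. The differences of the probes shown were -0.14 for Tgfb1, 1.78 for Tgfb2 and 1.97 for Inhba.

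In the activin branch 1 subunit gene was higher and the antagonist gene was lower in ob/ob. Inhba encodes the inhibin beta A subunit, whose dimer is activin A. Its intensity was 14700 in ob/ob LSEC and 2586 in WT LSEC, or scaled signals of 10.3 and 2.62. The difference was 1.97 ± 0.20 (SD of the error model), or 3.93-fold, and it stayed between 1.70 and 2.16 under the 10 alternative settings. Only 2.21% of the 907 genes of like level were at least 2-fold higher. Inhba was read by 1 probe with 1 spot on each array, and the settings process that same spot in other ways.

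Inhbb encodes the beta B subunit of activin B. Its probe (mm9, chr1:121312160-121312219, minus strand) gave intensities of 77000 in ob/ob and 38079 in WT, or scaled signals of 53.8 and 38.5. The difference of 0.48 was below 2-fold. Scaled to the array medians it was 0.20. Among the 907 brightest genes the median difference was -0.42. Relative to that median Inhbb stood at 0.91, a centring chosen after seeing the data. Of those genes 0.110% were at least 2-fold higher, and Inhbb was not among them.

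Fst had the opposite difference. Its probe (mm9, chr13:115243565-115243624, minus strand) had an intensity of 398 in ob/ob LSEC and 1963 in WT LSEC, or scaled signals of 0.278 and 1.99. The difference was -2.83 ± 0.20 (SD of the error model), a 7.13-fold lower signal in ob/ob, and it stood at place 5 of 18135 from the most negative end. It lay between -3.11 and -2.54 under the 10 alternatives, and Fst was at least 2-fold lower in each of them. Of the genes of like level, 1.77% were at least 2-fold lower. A single spot reads Fst on each array, and the local background at that spot was 62.5 on the ob/ob array and 67 on the WT array, both near the array medians of 60 and 63. In these 2 samples the Inhba signal was thus the higher one, and the Fst signal the lower one, in ob/ob.

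The receptor genes all lay within 2-fold. Tgfbr1, the type I receptor, had scaled signals of 1.12 in ob/ob LSEC and 1.43 in WT LSEC with its brighter probe (mm9, chr4:47427736-47427795, plus strand), a difference of -0.36. Its second, much dimmer probe, 2790 bases away, gave 0.0261 in ob/ob and 0.0394 in WT, a difference of -0.59. Both probes pointed the same way after scaling. In unscaled intensity the brighter probe was higher in ob/ob, at 1600 against 1416.5 in WT.

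Tgfbr2, the type II receptor that binds the ligand first, gave no settled sign. Its brighter probe (mm9, chr9:115997155-115997214, minus strand) had scaled signals of 7.97 in ob/ob and 6.39 in WT, a difference of 0.32. The second probe, 2341 bases away, had 0.408 in ob/ob and 0.522 in WT, a difference of -0.36. The gap of 0.67 between these probes of 1 gene was larger than either difference, and their mean was -0.02.

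Tgfbr3, which encodes the co-receptor betaglycan, had scaled signals of 8.11 in ob/ob and 11.1 in WT (mm9, chr5:107535818-107535877, minus strand). The difference was -0.45 and stayed negative, between -0.73 and -0.24, under all 10 alternatives. In unscaled intensity the ob/ob value was the higher one, at 11600 against 10962 in WT, so this sign also comes from the scaling. Betaglycan presents TGF-beta to the type II receptor and also binds inhibin. No receptor gene thus differed by 2-fold in either direction, whereas the ligand genes Tgfb2 and Tgfb3 did. With normexp and the 75th percentile, Tgfb2 and Tgfb3 also lay within 2-fold, at -0.22 and 0.48. At the levels of Tgfb2 and Tgfb3, 14.2% and 11.8% of the genes were at least 2-fold higher. At the level of Tgfbr1 it was 5.40%, and at that of Tgfbr2 and Tgfbr3 1.88%.

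Ltbp1 encodes a latent TGF-beta binding protein that ties the latent complex to the matrix. Its intensity was 35.7 in ob/ob LSEC and 16.2 in WT LSEC (mm9, chr17:75790530-75790589, plus strand), the second of which is close to the detection limit. The difference of 0.61 ± 0.37 (SD of the error model) was below 2-fold, and it turned to -1.36 with normexp and the 75th percentile. No direction is given for it.

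**Figure D3:**
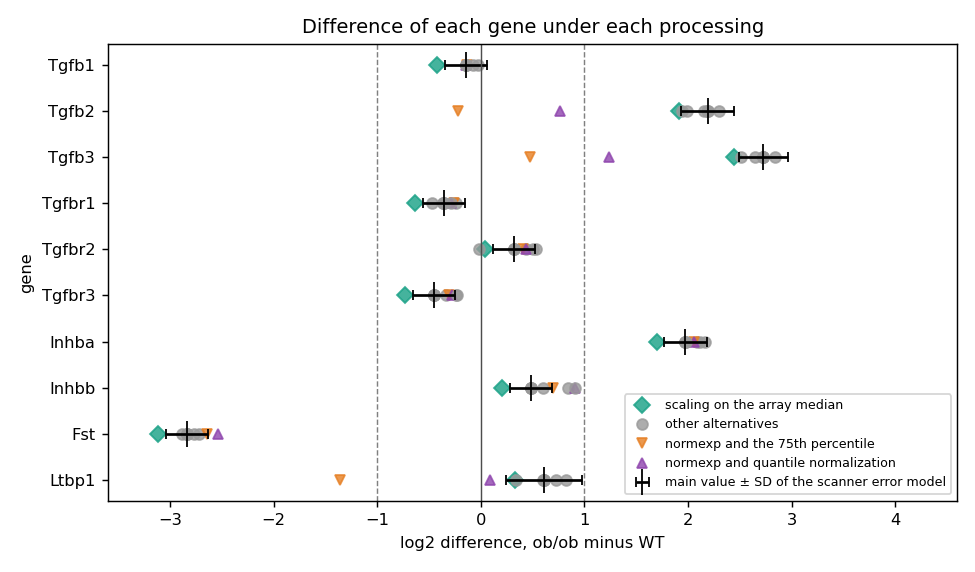
Log2 difference (ob/ob minus WT) of each of the 10 genes as reported (black bar, with the SD of the scanner error model) and under 10 alternative settings (symbols); dashed lines mark 2-fold. Inhba and Fst keep their place, at 1.70 or above and -2.54 or below; Tgfb3 stays above 0 but drops to 0.48, Tgfb2 turns to -0.22 and Ltbp1 to -1.36 with normexp and the 75th percentile, and Tgfbr2 turns to -0.02 with the mean over its probes.

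Promoters are shown for 3 genes, since Tgfb2 and Inhba were higher in ob/ob and Tgfb1 lay within 2-fold. Of the 10 genes, 7 have an entry in the RefSeq promoter table (assembly GRCm38.p6), with 9 start sites. The 250 bases before the start site are given 5′ to 3′ on the gene's strand, and capitals mark TATAAA, the cyclic AMP response half-site TGACG, the E-box CACGTG and the GC box GGGCGG, searched on both strands.
Tgfb2 promoter, chr1:186705990-186706239, minus strand: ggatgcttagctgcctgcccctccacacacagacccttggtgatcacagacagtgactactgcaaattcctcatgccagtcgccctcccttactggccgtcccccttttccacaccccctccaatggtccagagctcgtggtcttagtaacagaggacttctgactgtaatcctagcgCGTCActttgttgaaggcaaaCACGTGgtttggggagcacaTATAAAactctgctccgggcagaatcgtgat
Inhba promoter, chr13:16011601-16011850, plus strand: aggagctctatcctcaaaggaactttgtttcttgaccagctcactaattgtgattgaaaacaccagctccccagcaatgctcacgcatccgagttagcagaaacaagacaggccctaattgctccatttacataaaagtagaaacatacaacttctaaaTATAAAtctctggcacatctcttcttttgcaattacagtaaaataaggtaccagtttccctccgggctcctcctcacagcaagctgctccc
Tgfb1 promoter, chr7:25686752-25687001, plus strand: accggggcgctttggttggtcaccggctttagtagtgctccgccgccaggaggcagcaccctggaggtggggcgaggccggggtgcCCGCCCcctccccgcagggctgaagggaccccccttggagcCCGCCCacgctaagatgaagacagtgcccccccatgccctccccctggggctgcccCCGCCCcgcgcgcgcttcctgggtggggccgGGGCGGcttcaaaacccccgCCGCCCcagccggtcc
The Tgfb2 window holds TATAAA at position -31 from the start, with a CACGTG at -51 and a TGACG on the opposite strand at -72. The Inhba window holds TATAAA at -91, and the Tgfb1 window holds 5 GC boxes and no TATAAA. Over 32851 promoter windows of the same length, 12.4% hold TATAAA, 17.8% TGACG, 6.02% CACGTG and 32.7% GGGCGG. GC content was 53.6% for Tgfb2, 43.2% for Inhba and 75.2% for Tgfb1, against a median of 52.4% over all windows. The AP-1 letters TGANTCA (in 6.75% of windows) and the Smad letters GTCTAGAC (in 0.167%) were in none of the 9 windows. Inhbb and Tgfbr1 also hold GC boxes, 1 and 2 of them, and Ltbp1 holds TGACG on each strand, at -73 and -70. A match of letters is a description and not a measured binding site.

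The rest of the pathway was described through 5 lists with 77 genes in all, of which 65 were measured on both arrays. Of these, 22 were higher in ob/ob by at least 2-fold, 4 were lower and 39 lay within 2-fold, beside the 5.82% and 2.29% of all genes given above. With normexp and the 75th percentile 12 were higher and 6 lower, beside 2.04% and 21.1% of all genes in that setting. The 4 lower genes include Snai2, whose direction was not settled. The counts were uneven between lists. Genes that act outside the cell and genes known as TGF-beta targets made up most of the higher ones, and none of the Smad genes was among them.

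Of the 19 genes for the latent complex and its activation, 17 were measured on both arrays, 7 were higher, 1 was lower and 9 lay within 2-fold, with a median of 0.74. Ltbp2, a matrix protein related to Ltbp1, had scaled signals of 0.197 in ob/ob and 0.0311 in WT, a difference of 2.66. Dcn encodes decorin, a proteoglycan that binds TGF-beta, and had 33.2 in ob/ob and 8.00 in WT, a difference of 2.05. Emilin1, a matrix protein that limits processing of the TGF-beta precursor, differed by 1.85. Thbs1 encodes thrombospondin 1, an activator of latent TGF-beta, and had 4.51 in ob/ob and 1.32 in WT, a difference of 1.77. Lrrc32, which anchors latent TGF-beta at the cell surface, was lower, with 50.4 in ob/ob and 109.7 in WT, a difference of -1.12. The bright transglutaminase gene Tgm2 lay within 2-fold at 0.41. With normexp and the 75th percentile 4 were higher and 1 lower, beside 2.04% and 21.1% of all genes in that setting. The median there was 0.12, with the dim genes Ltbp2 at 0.37 and Emilin1 at 0.44. Lrrc32 stood at -0.67 with normexp and quantile normalization.

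Of the 13 activin and inhibin partners, 6 were measured on both arrays. Another 6 were measured on neither array, and 1 was measured in ob/ob alone. Fstl3, a follistatin-like antagonist of activin, was higher by 1.15, with scaled signals of 0.0881 in ob/ob and 0.0397 in WT, but turned to -0.56 with normexp and the 75th percentile. Tdgf1, a co-receptor for Nodal that also binds activin receptors, was lower by this measure, with 2.16 in ob/ob and 5.41 in WT, a difference of -1.32. The type II receptor gene Acvr2b had a difference of -0.47. The list median was 0.13, but -0.15 when the arrays were scaled to their medians and -0.73 under normexp with the 75th percentile, so the list has no settled direction. Of 3 endothelial receptor partners, 2 were measured on both arrays and lay within 2-fold: Eng, the co-receptor endoglin, at -0.44 and the type I receptor gene Acvrl1 at 0.57.

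All 20 genes for Smad signalling and its regulators were measured on both arrays, and all 20 lay within 2-fold, between -0.59 and 0.44, with a median of -0.25. With normexp and the 75th percentile 3 of them were at least 2-fold lower, a setting under which 21.1% of all genes were lower. Smad3, which carries the signal of both families, had scaled signals of 12.0 in ob/ob and 14.2 in WT, a difference of -0.24, which turned to 0.03 when centred on genes of like level. Tgif1, a repressor that binds Smad2, stood at -0.19 and turned positive in 3 settings, to as much as 0.23. The last 3 genes, which TGF-beta itself induces as feedback, were picked out after their values were seen. Skil was read by 2 probes with differences of 0.44 and -0.10, and Smad7 at -0.11 and Pmepa1 at 0.04 changed sign under other settings, so none of the 3 has a settled direction.

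Of the 27 TGF-beta target genes, 25 were measured on both arrays, 16 were higher, 2 were lower and 7 lay within 2-fold, with a median of 1.40. Of all genes, 5.82% were higher and 2.29% lower. Over the alternatives the number of target genes higher ran from 9, with normexp and the 75th percentile, to 17. In that normexp setting 2.04% of all genes were higher and 21.1% lower. Angptl4, a secreted inhibitor of lipoprotein lipase that TGF-beta and fatty acids induce, had scaled signals of 25.1 in ob/ob and 2.61 in WT, a difference of 3.27. The collagen gene Col3a1 differed by 2.92 and the smooth muscle actin gene Acta2 by 2.42, or by 0.91 and 0.33 with normexp and the 75th percentile. Col1a1 was measured on the ob/ob array alone and was at least 8.12-fold brighter there, a bound that was not computed under the alternatives. Ccn2, the connective tissue growth factor gene, went the other way, with 25.5 in ob/ob and 39.5 in WT, a difference of -0.63. The cell cycle inhibitor gene Cdkn2b was lower, at -1.07, and at -0.83 with normexp and quantile normalization. Snai2 stood at -2.82, but turned to 3.005 with normexp and quantile normalization, and the local background of its spot was 56 on the ob/ob array and 3125 on the WT array, so no direction is given for it.

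**Figure D4:**
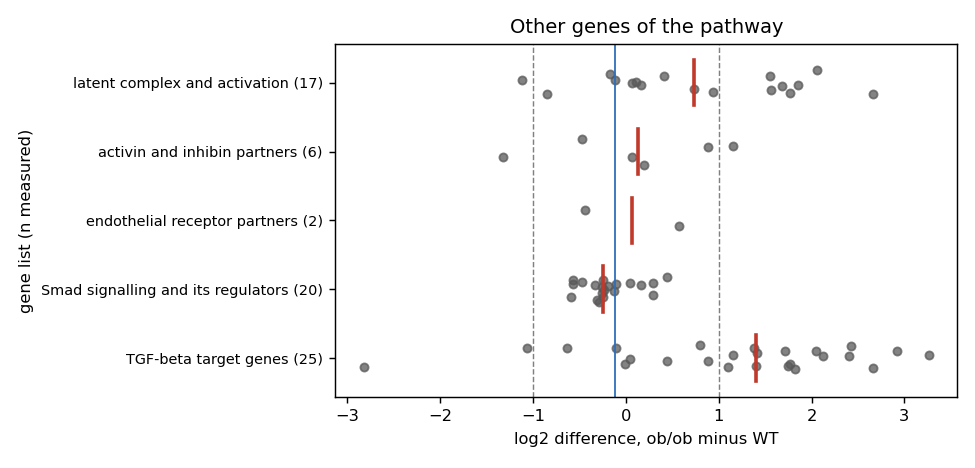
Log2 difference (ob/ob minus WT) of the genes measured on both arrays in 5 pathway lists; points are genes, spread up and down for display, red bars are list medians, the blue line is the all-gene median of -0.12 and dashed lines mark 2-fold. The target genes (median 1.40) and the latent complex genes (median 0.74) lie mostly to the right, the 20 Smad genes between the dashed lines (median -0.25), and the list of 6 activin partners has a median whose sign depends on the scaling.

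Several target genes are also known as markers of other liver cells, and markers of such cells were higher in the ob/ob sample. Both samples carried the endothelial markers of their label: all 10 sinusoidal and all 10 pan-endothelial markers were measured on both arrays and lay within 2-fold. The sinusoidal markers Fcgr2b, Stab1 and Lyve1 differed by -0.22, -0.36 and -0.40, and the list median was -0.24. Summed scaled signals of the sinusoidal markers were 71.3 in ob/ob and 87.0 in WT, and those of the pan-endothelial markers 224 in ob/ob and 312 in WT. The pan-endothelial median was 0.01, with 5 positive and 5 negative differences. The brightest of these, Egfl7, Cdh5 and Robo4, differed by -0.58, -0.44 and -0.41 and carry most of the sum.

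Of the 13 stellate cell and fibroblast markers, 11 were measured on both arrays and all 11 were higher, with a median of 2.04 and summed scaled signals of 37.8 in ob/ob and 9.39 in WT. With normexp and the 75th percentile 3 of the 11 were higher, beside 2.04% of all genes in that setting, and the median was 0.61. Dcn, Colec11 and Rgs5, the brightest of them, differed by 2.05, 1.23 and 2.50. Of the 13 Kupffer cell and macrophage markers, 12 were measured on both arrays and 11 were higher, with a median of 1.78 and sums of 152 in ob/ob and 55.2 in WT; Cd163 was not above background on either. Marco, Cd5l and Csf1r, the brightest, differed by 1.29, 1.31 and 1.002. Csf1r was read by 3 probes with differences from 0.02 to 1.34, and stood at 0.72 when the arrays were scaled to their medians.

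Of the 12 hepatocyte markers, 10 were higher, with a median of 2.58 and sums of 46.9 in ob/ob and 7.88 in WT. With normexp and the 75th percentile 7 were higher and 2 lower, with a median of 1.30, beside 2.04% and 21.1% of all genes in that setting. The brightest, Serpina1c, Trf and Alb, differed by 2.03, 2.64 and 3.15. Of the 8 cholangiocyte markers, 3 were measured in both samples and were higher (Spp1, Krt18 and Krt8, at 3.73, 2.81 and 2.90). Another 4 were measured on the ob/ob array alone, with bounds from 1.01-fold to 1.87-fold, none of them past 2-fold. Cldn4, measured on the WT array alone, was at least 9.58-fold brighter in WT. Summed scaled signals of the 8 were 5.52 in ob/ob and 0.624 in WT, of which Spp1 gave 3.90 and 0.295. Whether Spp1, Krt18 and Krt8 were read from cholangiocytes or from other cells was not tested. Of the 10 T and NK cell markers, 3 were measured on both arrays and lay within 2-fold (Nkg7, Cd4 and Cd3e, at -0.19, 0.17 and 0.19), and 4 were measured on the ob/ob array alone. Of those 4, Gzmb was at least 8.80-fold, Cd3d at least 6.44-fold and Cd3g at least 2.01-fold brighter in ob/ob, and Cd2 had no bound past 2-fold; these 4 are named after their values were seen. Summed scaled signals of the 10 were 0.823 in ob/ob and 0.613 in WT. Of the 5 mesothelial markers only Gpm6a was measured, at 0.64, or -0.09 with normexp and the 75th percentile.

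**Figure D5:**
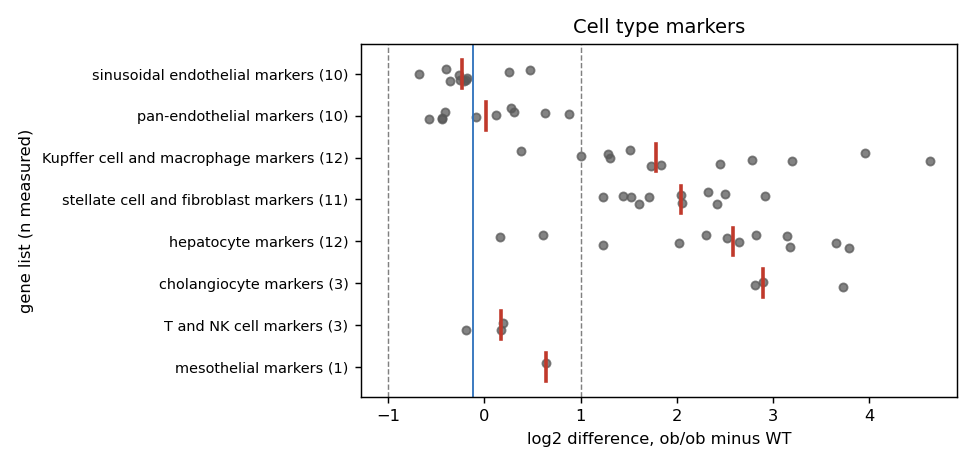
Log2 difference (ob/ob minus WT) of the cell type markers measured on both arrays; points are genes, spread up and down for display, red bars are list medians, the blue line is the all-gene median of -0.12 and dashed lines mark 2-fold. Endothelial markers lie between the dashed lines, and stellate, macrophage and hepatocyte markers lie mostly or wholly to the right. The 3 genes shown of the cholangiocyte list, Spp1, Krt18 and Krt8, also lie to the right, and the rest of that list is not shown.

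Stellate, macrophage and hepatocyte markers were mostly higher in ob/ob, as were Tgfb2, Tgfb3, Inhba and 16 of the 25 measured target genes. With 1 array per genotype this is a shared sign and no more. The part of the cell make-up of the preparations in these differences was not tested. In RNA from a whole cell preparation, more cells of a type and more RNA of a gene per cell cannot be told apart. Of the target list, 4 genes also stand on the stellate list. Without them, 22 target genes were measured on both arrays, 13 were higher and 2 were lower, with a median of 1.27. Of the latent complex list, 1 gene is shared, and without it 6 of 16 were higher and 1 lower, with a median of 0.57. Of all genes, 5.82% were higher and 2.29% lower. These recounts only remove the overlap of the lists, and which cells the remaining genes were read from was not tested. Fst was lower in ob/ob, whereas the stellate, macrophage and hepatocyte markers were mostly higher. Of the 10 sinusoidal markers, 8 had negative differences, all within 2-fold. The part of the cell make-up of the preparations in the Fst difference was not tested either.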

How the data were processed

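The deposited intensity values come from Agilent Feature Extraction 11.0.1.1, per the submitters' processing notes. Per the file headers, it subtracted background and removed spatial trends but applied no scaling between arrays. The authors' deposited table of 24868 features holds a ratio, intensity over the 75th percentile of its array, constant within 1.42% for ob/ob and 0.978% for WT; column medians were 0.648 for ob/ob and 0.614 for WT. Its scale, centring and direction were thus settled.

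Control and outlier-flagged spots (120 on the ob/ob and 148 on the WT array) were left out, spots of a probe were averaged, and the brightest probe stood for a gene. A probe was measured where over 50% of its spots were well above background. This held on both arrays for the brightest probe of 18135 genes. Counted over any probe of a gene, it held for 2180 genes on ob/ob alone, 273 on WT alone and 11283 on neither. Genes measured on both arrays only with the aid of other probes are in none of these counts. Of the spots, 64.8% on the ob/ob and 58.6% on the WT array were well above background. A bound takes the brighter signal over the higher of the dim signal and the dimmest one well above background. Bounds were computed in the main setting alone. Genes of like level are those in the same of 20 bins. No test was run, because n = 1 in each group, and precision is limited by the number of arrays.

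Members and lists were chosen with earlier results of these data known. Named were all members; in each pathway list, up to 4 genes with the largest differences past 2-fold in each direction, bounds past 2-fold and the 2 brightest; and the 3 brightest markers. A gene that this rule names is not reported here. Symbols follow RefSeq accessions (GRCm38.p6). Normexp (offset 50) came from limma 3.58.1 in R 4.3.3; other steps used Python 3.11.15 and were tested on simulated data.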

Additional observations from a re-analysis of the deposited data

How the results depend on the processing

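Under the alternatives, 45 values of counts and medians moved by less than 1.5 times or the technical spread and 9 moved by more; for differences of single genes these numbers were 76 and 23, and 1 reversed. With normexp and the 75th percentile, Tgfb2 reversed to -0.22, 1 of the 10 genes was higher and 2 were lower, their median was -0.17 and 12 pathway genes were higher. Of all genes, 2.04% were higher and 21.1% lower in that setting. The median over the 10 genes was 0.12 when arrays were scaled to their medians, and 0.68 with centring on genes of like level, an alternative chosen after seeing the data. Pathway genes lower numbered 2 with quantile normalization, 1 with normexp and quantile normalization and 2 with that centring. The all-gene median shifted by -0.28 with the array median, 0.11 with the percentile over measured spots, 0.12 with the centring, and -0.17 with normexp and the 75th percentile. Genes higher and lower numbered 766 and 976 with the array median, 1196 and 294 with the percentile over measured spots, 914 and 555 with quantile normalization, 369 and 3818 with normexp scaled to the 75th percentile, 508 and 130 with normexp quantile-normalized, and 2679 and 1634 with no filter on dim probes, against 1055 and 415 as reported. At 1.5-fold 1778 and 1649 genes passed, Ltbp1 among them; at 4-fold 329 and 36, with Inhba no longer past it. The cause of these moves was not tested. Fst remained at least 2-fold lower in each alternative setting run at the 2-fold threshold. No paired analysis was possible because each group holds 1 array and no test was run. Signals near background limit Tgfb2, Tgfb3 and Ltbp1, most of all on the WT array.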
